A study of Mus musculus with 30 samples.

Results

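Tumors of obese mice that had a vertical sleeve gastrectomy (DIO-VSG) were compared with tumors of obese mice kept on their high-fat diet (DIO-HFD), 6 tumors per group with 1 array each, which were 12 of the 30 tumors in the series. The tumors grew from E0771 cells, a mammary carcinoma line of C57BL/6 mice used as a model of triple-negative breast cancer, and all of them come from that 1 line. The mice were female C57BL/6NCrl, 8 weeks old on arrival, and became obese on a 60% high-fat diet for 15 weeks. DIO-VSG mice then had most of the lateral stomach removed and were fed the control low-fat diet, while DIO-HFD mice had a sham operation and kept their diet. At 10 weeks after the operation E0771 cells were injected at the 4th mammary gland, and tumors were collected 4 weeks later. Surgery, weight loss and the change of diet came together in the DIO-VSG group and cannot be told apart here. The other 18 tumors came from never-obese CON-LFD mice and from obese mice under chronic (DIO-CCR) or intermittent (DIO-ICR) calorie restriction, all of which had the sham operation. They entered the fit, and their levels and their differences from DIO-VSG are given at the end.

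A solid tumor in the fat pad holds carcinoma cells together with neutrophils, monocytes, macrophages and lymphocytes that enter from the blood. Neutrophils and inflammatory monocytes carry the calprotectin proteins, receptors that pair activating with inhibitory forms, and the inflammasome, a complex that cuts interleukin-1 beta into its active form. The same fat pad holds an inguinal lymph node, adipocytes and mammary ducts and lies next to skeletal muscle, so that tissue next to a tumor can be taken with it. In whole tumors, fewer cells of a type and less RNA per cell cannot be told apart.

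Values are log2 expression levels, and a difference of 1 is a factor of 2. Over 19505 genes, 30 passed limma's test at an adjusted p under 0.05 (0.154%), of which 20 were higher (0.103%) and 10 lower (0.0513%) in DIO-VSG tumors. At an unadjusted p under 0.05 there were 2022 genes (10.4%), where chance would give about 975.25. Of all genes 3.9% (761) were higher and 6.47% (1261) lower at that threshold, against which the counts of list members below are to be read. The median difference of all genes was -0.05, and 7829 of them were higher and 11640 lower in sign, against which the sign counts below are to be read. The 20 higher genes included products and receptors of neutrophils and monocytes, among them Retnlg, S100a9, Tarm1, Il1b, Plac8, Ccr2, Nlrp3 and Sirpb1c, and the 10 lower genes held 3 of amino acid handling, Slc1a4, Slc6a9 and Gpt2. In 15 of the 20 higher genes the lowest DIO-VSG value exceeded the highest DIO-HFD value, a pattern that 0.385% of all genes showed. In 5 of the 10 lower genes the ranges were apart the other way, as in 0.497% of all genes. The 30 genes were picked on these same values, so separate ranges follow in part from the choice. The 12 tumors alone gave 7 calls (0.0359%), and only 4 of the 30 genes were among them, Ly6i, Retnlg, S100a9 and Tarm1.

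Some tumors carried high levels of lymph node or muscle transcripts, which bears on all that follows. For each marker list, the mean level of its genes was taken relative to the median array, and a tumor more than 1 above it in lymph node or skeletal muscle markers was treated as doubtful. No tumor was left out for its level on another list. The 16 measured lymph node markers were 3.61 above the median array in DIO-VSG 1 and 1.54 above it in DIO-HFD 5, where the number after a group names the tumor. DIO-VSG 5 was next with 0.795, under the limit, and the other 9 tumors lay between -0.19 and 0.05. The 24 skeletal muscle markers were 4.84 above the median array in DIO-VSG 4 and 1.56 in DIO-VSG 3, and no DIO-HFD tumor was above 0.37. DIO-VSG 1 was also the highest of the 12 in adipocyte markers (2.62), mammary epithelium markers (1.94), T cell markers (2.89) and B and plasma cell markers (6.03).

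**Figure D1:**
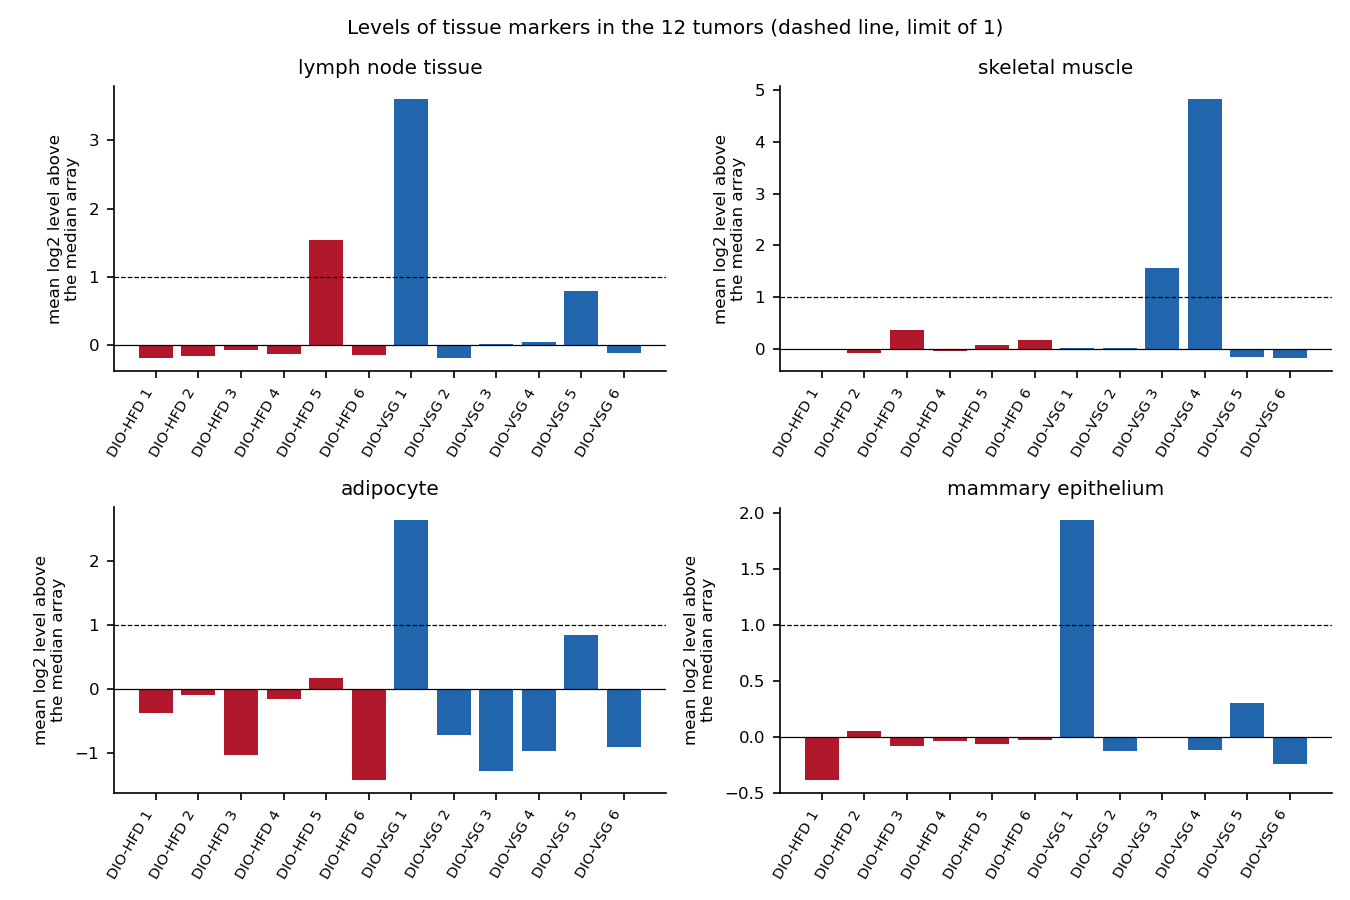
Mean log2 level of lymph node, skeletal muscle, adipocyte and mammary epithelium markers in each of the 12 tumors, relative to the median array of the series (bars; DIO-HFD red, DIO-VSG blue; dashed line, limit of 1). DIO-VSG 1 stands at 3.61 for lymph node markers and DIO-VSG 4 at 4.84 for muscle markers, while most other tumors lie near 0 for these markers. Adipocyte markers spread more widely, from -1.41 in DIO-HFD 6 to 2.62 in DIO-VSG 1.

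Single markers were highest in the same tumors, which follows in part from the choice of these tumors by lists that hold the markers. Cxcl13, a chemokine of B cell follicles, was 15.31 in DIO-VSG 1 and 11.97 in DIO-HFD 5, against 5.30 to 6.78 in the other DIO-HFD tumors and 6.52 to 9.95 in the other DIO-VSG tumors. Of these DIO-VSG 3, 4 and 5, at 8.43, 8.90 and 9.95, also lay above the rest of DIO-HFD although their lymph node score was under the limit. Cr2, a complement receptor of B cells and follicular dendritic cells, was 9.69 and 6.85 in DIO-VSG 1 and DIO-HFD 5 and no higher than 4.90 in the other 10 of the 12 tumors. Myh4, a myosin of fast muscle fibers, was 13.19 in DIO-VSG 4 and 6.85 in DIO-VSG 3, and between 3.23 and 4.24 in the other 10. The giant muscle protein gene Ttn was 11.13 and 6.66 in those tumors and between 3.46 and 4.51 in the other 10. None of these 4 genes passed the test (adjusted p from 0.443 for Ttn to 0.909 for Cr2). Carcinoma markers overlapped between the groups. Vim, a filament protein of mesenchymal and carcinoma cells, ranged from 17.29 to 17.54 in DIO-HFD and from 17.17 to 17.41 in DIO-VSG (adjusted p = 0.517), and Krt8, a keratin of simple epithelia, from 8.94 to 11.71 and from 8.75 to 11.25 (adjusted p = 0.716). Epcam and Krt18, markers of epithelial cells, were at most 5.53 and 4.73 in 11 tumors and stood at 8.64 and 8.24 in DIO-VSG 1.

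Neutrophil genes lay higher after sleeve gastrectomy. Of 22 measured genes of the list 20 were higher in sign and 2 passed, with a median of 1.16 against -0.05 over all genes, and 14 were higher at an unadjusted p under 0.05 where 3.9% of all genes were. S100a9, which with S100a8 forms calprotectin, lay between 5.60 and 8.92 in DIO-HFD tumors (median 6.49) and between 9.60 and 10.56 in DIO-VSG tumors (median 10.32). The groups were separate, and the DIO-VSG tumors lay close to each other while DIO-HFD 2 stood above the rest of its group. The difference was 3.48 with an SE of 0.67, a fold of 11.2. Retnlg, a resistin-like protein made by neutrophils, ran from 2.98 to 5.73 (median 4.18) in DIO-HFD and from 7.18 to 9.24 (median 8.53) in DIO-VSG. These ranges were separate as well, with the tumors high in muscle markers, DIO-VSG 3 and 4, as the lowest of their group, and the fold was 14.6. The DIO-HFD values of Retnlg were low, under 6.44, the lowest median level of any of the 12 arrays.

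Further genes of the list did not pass although their ranges were apart. S100a8 was between 5.36 and 7.88 in DIO-HFD and between 8.17 and 10.81 in DIO-VSG (difference 2.72, adjusted p = 0.0621), with DIO-VSG 1 the highest. Csf3r, the receptor for the growth factor that drives neutrophil production, was between 7.63 and 9.07 and between 9.23 and 10.04 (difference 1.13, adjusted p = 0.11). Lcn2, an iron-withholding protein picked here after its values were seen, was between 7.41 and 9.71 and between 10.59 and 13.14 (difference 2.93, adjusted p = 0.113). In all 3 the lowest DIO-VSG tumor stood above the highest DIO-HFD tumor. The mean of the whole list put all 6 DIO-VSG tumors (0.37 to 1.14 above the median array) over all 6 DIO-HFD tumors (-0.99 to 0.33), and its median difference was 1.06 without DIO-VSG 1 and DIO-HFD 5 and 1.11 without the tumors high in muscle markers, and 0.88 without either.

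The signals that draw neutrophils were less uniform. Of 16 recruitment genes 9 were higher in sign and none passed, with 4 at an unadjusted p under 0.05, and a median of 0.31 that became -0.07 without the tumors high in muscle markers. Cxcl1, a ligand of the receptor Cxcr2, ran from 5.46 to 7.79 in DIO-HFD and from 6.34 to 9.32 in DIO-VSG, and Cxcr2 itself from 4.39 to 5.82 and from 5.13 to 7.50. The ranges of both genes overlapped (adjusted p = 0.396 and 0.331). DIO-HFD 2 stood apart from its group for the list as a whole, at 1.26 above the median array against at most -0.13 in the other 5.

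Interleukin-1 beta and its inflammasome sensor rose. Il1b lay between 9.10 and 10.46 in DIO-HFD tumors (median 9.89), and in DIO-VSG tumors it was 10.35 in DIO-VSG 1 and between 11.58 and 12.10 in the other 5. The only overlap thus came from the tumor high in lymph node markers, and the difference of 1.79 was 1.90 when DIO-VSG 1 and DIO-HFD 5 were left out. Nlrp3, the sensor that assembles the inflammasome, was between 5.69 and 7.20 in DIO-HFD and between 6.82 and 8.18 in DIO-VSG, a rise of 1.22 with an SE of 0.25. DIO-HFD 2 was again the highest of its group and DIO-VSG 1 the lowest of its own. Nlrc4, a sensor of bacterial proteins, was between 5.64 and 6.18 and between 6.08 and 7.12 and did not pass (difference 0.71, adjusted p = 0.129). Over the 20 genes of the inflammasome and interleukin-1 list 17 were higher in sign, 2 passed and 10 were higher at an unadjusted p under 0.05, and the median of 0.55 was 0.51 without the lymph node tumors and 0.43 without the muscle tumors. Over 24 targets of NF-kB and TNF the median was 0.32 (0.18 without the muscle tumors), and Il1b was the 1 gene among them that passed.

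**Figure D2:**
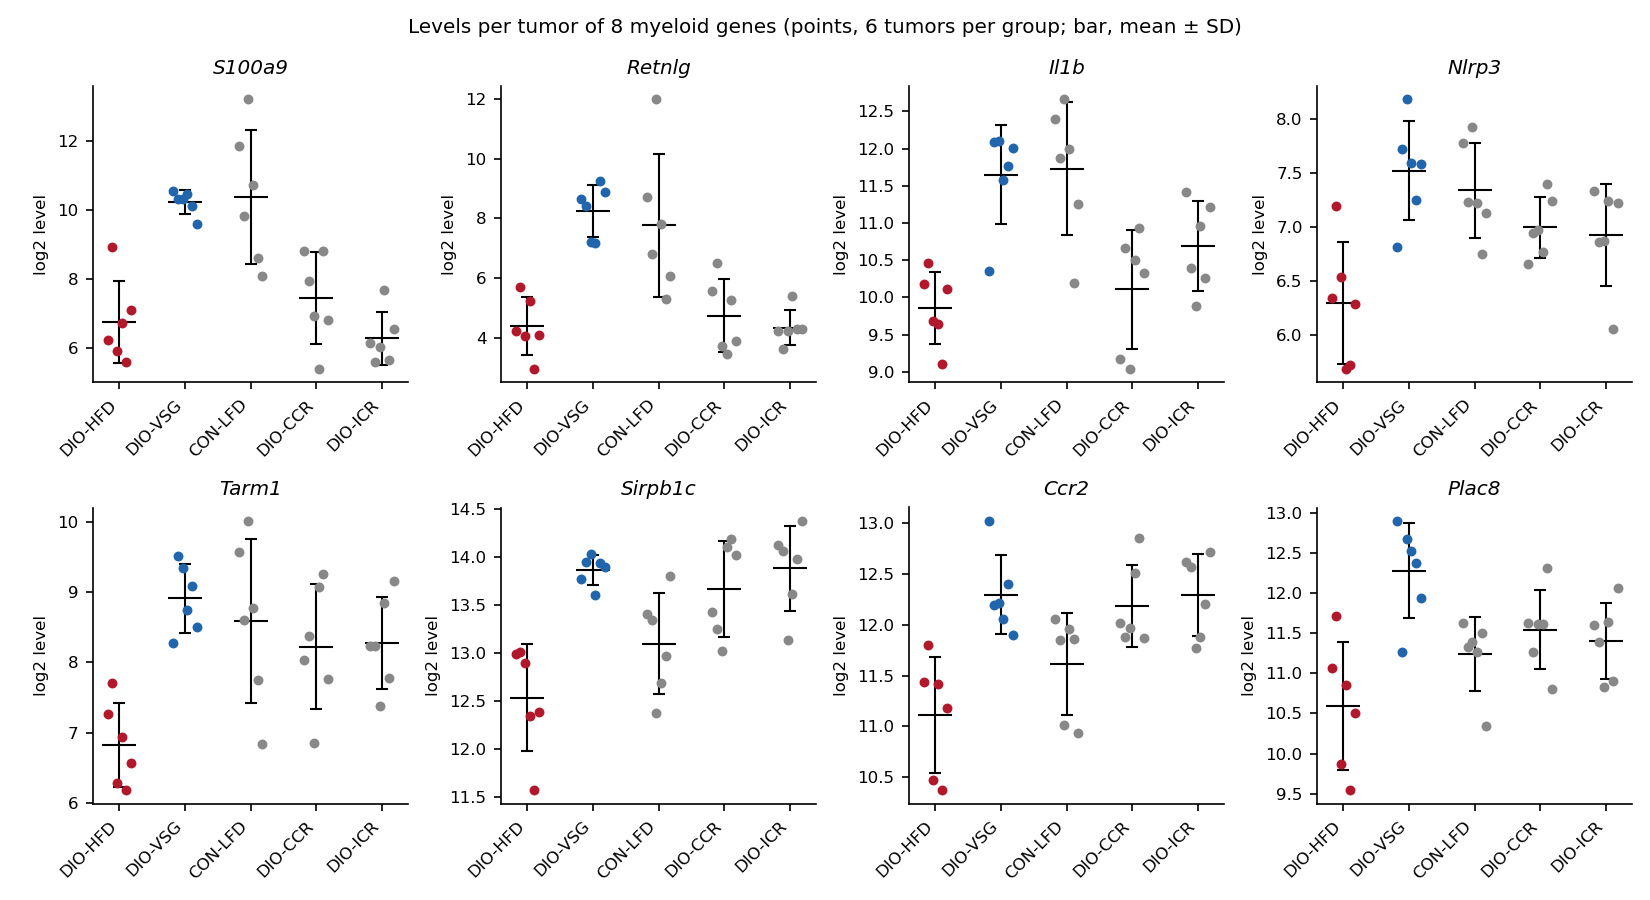
Log2 levels of 8 genes in each tumor of the 5 groups (points, 6 per group; horizontal bar and whiskers, mean and SD). In S100a9 all DIO-VSG tumors lie between 9.60 and 10.56, above every DIO-HFD tumor, and the DIO-ICR tumors lie between 5.60 and 7.69.

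Genes in a list of paired and activating myeloid receptors, which also holds the adaptor genes Tyrobp and Fcer1g, lay on 1 side. All 25 measured genes of this list were higher in sign, 4 passed (Tarm1, Sirpb1c, Mcemp1 and Pilrb1) and the median was 0.65. At an unadjusted p under 0.05, 17 were higher, where 3.9% of all genes were. Tarm1, an activating receptor of myeloid cells, was between 6.18 and 7.70 in DIO-HFD (median 6.75) and between 8.27 and 9.51 in DIO-VSG (median 8.91). The groups were separate, and the fold was 4.24. Sirpb1c, an activating member of the SIRP family, was between 11.57 and 13.01 (median 12.64) and between 13.61 and 14.04 (median 13.92). It too was separate, with the DIO-VSG tumors close to each other and DIO-HFD 5 far below the rest of its group, and the fold was 2.52. Of 4 gene models that passed, Gm9733 and Gm5150, named here after their values were seen, lie close to Sirpb1c on chromosome 3 and rose by 1.56 and 1.11. The 3 may share probes, so their separate values are uncertain. Pilrb1, which signals through the adaptor DAP12, was between 6.05 and 6.86 and between 6.98 and 8.02 (fold 2.15), with DIO-VSG 1 the lowest of its group. Its neighbour and near copy Pilrb2, chosen after its values were seen, was between 5.85 and 7.03 and between 7.05 and 8.55 but did not pass (difference 1.25, adjusted p = 0.15). Mcemp1, a membrane protein of mast cells and neutrophils, was between 4.85 and 6.82 and between 6.68 and 7.73, and 4 DIO-VSG tumors exceeded the DIO-HFD range. The median of the list was 0.78 without the lymph node tumors and 0.58 without the muscle tumors.

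Genes of monocytes were higher, while those of macrophages were mixed. Of 19 genes of inflammatory and patrolling monocytes 17 were higher in sign and 4 passed, Plac8, Ly6i, Napsa and Ccr2, with 11 at an unadjusted p under 0.05 and a median of 0.89. Ccr2, the receptor by which monocytes leave the marrow, was between 10.37 and 11.80 in DIO-HFD and between 11.90 and 13.02 in DIO-VSG. The groups met but did not overlap, DIO-VSG 1 was the highest, and the difference of 1.18 was 0.89 without the lymph node tumors. Plac8, abundant in young monocytes, was between 9.54 and 11.71 and between 11.27 and 12.90. Only DIO-VSG 2 reached into the DIO-HFD range, and the difference of 1.69 was 1.35 without the lymph node tumors. Ly6i, a surface protein of the Ly6C family, was between 7.01 and 7.72 and between 8.13 and 8.72 and separated the groups (difference 1.14). Napsa, an aspartic protease, was between 7.35 and 8.51 in DIO-HFD, between 8.73 and 10.02 in 5 DIO-VSG tumors and 11.72 in DIO-VSG 1. Its difference of 1.60 was 1.28 without the lymph node tumors. The monocyte list's median was 0.70 without them and 1.00 without the muscle tumors.

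Of 19 macrophage genes 13 were lower in sign, where 11640 of all 19505 genes were, and 0 passed. At an unadjusted p under 0.05, 6 were lower and 1 higher, against 6.47% and 3.9% of all genes. Adgre1, a surface antigen of mature macrophages, ran from 11.92 to 12.60 and from 12.02 to 12.37 and overlapped fully (difference -0.00 with an SE of 0.24). Folr2, a folate receptor of resident macrophages, was between 10.70 and 12.01 in DIO-HFD and between 8.45 and 10.43 in DIO-VSG (difference -1.28, adjusted p = 0.155), and the groups did not overlap. Mrc1, the mannose receptor, ran from 14.41 to 15.49 and from 13.66 to 14.60 (difference -0.67, adjusted p = 0.275). Itgax, the CD11c integrin of dendritic cells and activated macrophages, was between 7.50 and 8.62 and between 9.01 and 9.89, the other way, and was separate too (difference 1.22, adjusted p = 0.167). Outside the lists, Spic, a transcription factor of iron-recycling macrophages, was between 6.49 and 8.27 and between 8.77 and 10.75 without overlap (difference 2.29, adjusted p = 0.0729). Cbr2, a carbonyl reductase, and Npl, a sialic acid lyase, were at differences of -1.57 and -1.45 (adjusted p = 0.142 and 0.133), and both passed with the lymph node and muscle scores as covariates (adjusted p = 0.0416 and 0.0427).

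Interferon gamma genes were all on 1 side without a single call. Each of the 26 measured genes was higher in sign, 20 of them at an unadjusted p under 0.05 where 3.9% of all genes were, and the median was 0.72. Gbp4, an interferon-induced GTPase, was between 10.83 and 11.92 in DIO-HFD and between 12.28 and 13.84 in DIO-VSG. The groups were separate, and the difference of 1.36 had an adjusted p of 0.0848. Cxcl9, a chemokine that draws T cells, was between 10.58 and 12.65 and between 12.15 and 13.77 (difference 1.39, adjusted p = 0.203), with an overlap of 1 DIO-VSG tumor. Cd274, which encodes the checkpoint ligand PD-L1, was between 11.21 and 12.31 and between 12.12 and 13.41 (difference 0.82, adjusted p = 0.201). Ifng itself was between 4.67 and 5.48 and between 5.01 and 6.26 (adjusted p = 0.737) and the cytotoxic granule protease gene Gzmb between 6.82 and 7.99 and between 7.01 and 9.12 (adjusted p = 0.666), so both overlapped widely. The median of the interferon gamma list was 0.66 without the lymph node tumors, 0.57 without the muscle tumors and 0.42 without either. Type I interferon genes had a median of 0.16 over 21 genes, with 2 at an unadjusted p under 0.05. That median was 0.28 without DIO-VSG 1, 0.05 without the muscle tumors, -0.08 without the tumors of either kind and 0.36 with the scores as covariates. The 17 genes of MHC class I presentation were all higher in sign with a median of 0.29, which was 0.09 without the tumors of either kind, and 9 were at an unadjusted p under 0.05. H2-T23, a nonclassical MHC molecule seen by natural killer cells, ran from 9.98 to 10.91 in DIO-HFD and from 10.47 to 12.39 in DIO-VSG, highest in DIO-VSG 1 (adjusted p = 0.129).

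The T cell and the B and plasma cell lists were highest in DIO-VSG 1 and, within DIO-HFD, in DIO-HFD 5, the tumors high in lymph node markers. Cd8a, the coreceptor of cytotoxic T cells, was 10.95 in DIO-VSG 1 and between 6.75 and 7.54 in the other DIO-VSG tumors, and in DIO-HFD it was 7.31 in DIO-HFD 5 and between 4.41 and 6.79 in the rest. With both of these tumors left out the difference of 1.95 was 1.61, and it passed in neither case (adjusted p = 0.214 with all tumors). The T cell list had a median of 0.48 over 19 genes, and 0.20 without these tumors. B and plasma cell genes went from a median of 0.795 to 0.25, and to 0.05 with the lymph node and muscle scores as covariates. With only DIO-VSG 1 left out, the medians were -0.14 for B and plasma cells, 0.01 for T cells, 0.37 for MHC class II, 0.06 for cytotoxic and natural killer cells and -0.17 for dendritic cells. MHC class II genes, all 10 higher in sign, went from 0.96 to 0.53, and H2-Ab1, a class II beta chain, was between 9.72 and 12.01 in DIO-HFD, between 12.03 and 12.70 in 5 DIO-VSG tumors and 14.62 in DIO-VSG 1 (difference 1.47, adjusted p = 0.279). Genes of cytotoxic and natural killer cells went from 0.31 to 0.10, dendritic cell genes from 0.18 to -0.02 and checkpoint genes from 0.48 to 0.38 (0.20 without the muscle tumors as well). None of the genes in these lists passed the test. The part of lymph node tissue in each of these differences beyond the values given was not tested.

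Markers of muscle and fat were high in single tumors in the same way. The 24 muscle genes had a median of 0.90, which was -0.13 without DIO-VSG 3 and 4. These tumors were picked on the same 24 genes, so a fall of this median was built in. Eno3, a muscle enolase, was lower at -0.84 (adjusted p = 0.129). Adipocyte genes had a median of 0.24 over 22 genes, 0.04 without the lymph node tumors and 0.83 without the muscle tumors. Adipoq, the gene of adiponectin, was 13.40 in DIO-VSG 1 and 10.43 in DIO-VSG 5, between 4.40 and 6.83 in the other 4 and between 4.83 and 9.66 in DIO-HFD. Lep, which encodes leptin, ran from 4.52 to 8.0 in DIO-HFD and from 3.81 to 5.26 in 5 DIO-VSG tumors, with DIO-VSG 1 at 9.11 (adjusted p = 0.643). Genes of mammary epithelium went from a median of 0.45 over 20 genes to 0.08 without the lymph node tumors.

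Genes of amino acid handling fell in part. The list of amino acid transport, synthesis and targets of Atf4, a transcription factor that is turned on when amino acids are short, held 40 measured genes, of which 34 were lower in sign, 3 passed and 19 were lower at an unadjusted p under 0.05, where 6.47% of all genes were. Slc1a4, an exchanger of alanine, serine and cysteine, was between 10.02 and 11.01 in DIO-HFD (median 10.49) and between 9.09 and 9.89 in DIO-VSG (median 9.53). The groups were separate, and the fall of 1.05 with an SE of 0.18 had an adjusted p of 0.0157. Slc6a9, a glycine transporter, was between 11.13 and 12.50 (median 12.03) and between 10.21 and 11.38 (median 11.04). DIO-VSG 5 was the 1 tumor above the lowest of DIO-HFD, and the fold was 2.10. Gpt2, the mitochondrial alanine transaminase, was between 10.49 and 11.07 (median 10.88) and between 9.81 and 10.55 (median 10.03), and only DIO-VSG 2 reached into the DIO-HFD range. Slc1a4 and Gpt2 passed whichever of the 12 tumors was left out, but neither passed in the fit of the 12 tumors alone. DIO-VSG 1 was the lowest tumor for Gpt2 but not for the transporters. Without DIO-VSG 1 and DIO-HFD 5 together the differences of Slc1a4, Slc6a9 and Gpt2 were -1.10, -0.98 and -0.64 and did not pass (adjusted p = 0.0689, 0.15 and 0.078).

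Among genes of the list chosen after their values were seen, Aldh18a1, which starts proline synthesis, was between 14.07 and 14.25 in DIO-HFD and between 13.63 and 13.80 in DIO-VSG without overlap (difference -0.44, adjusted p = 0.0989). Trib3, a pseudokinase induced with Atf4, was between 9.05 and 10.72 and between 8.51 and 9.04 (difference -0.72, adjusted p = 0.207). Atf4 was between 15.36 and 15.72 and between 15.14 and 15.45 (difference -0.28, adjusted p = 0.203). Slc7a11, the cystine importer, stood against the list, between 7.46 and 9.06 in DIO-HFD and between 8.65 and 11.12 in DIO-VSG (difference 1.56, adjusted p = 0.193). The median of the list was -0.23, and it was -0.17 without the lymph node tumors and -0.29 without the muscle tumors. In the mean of the list only DIO-VSG 5, at 0.05 above the median array, reached into the DIO-HFD range of 0.04 to 0.41. Genes of the unfolded protein response of the endoplasmic reticulum, which shares part of this pathway, had a median of -0.02.

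**Figure D3:**
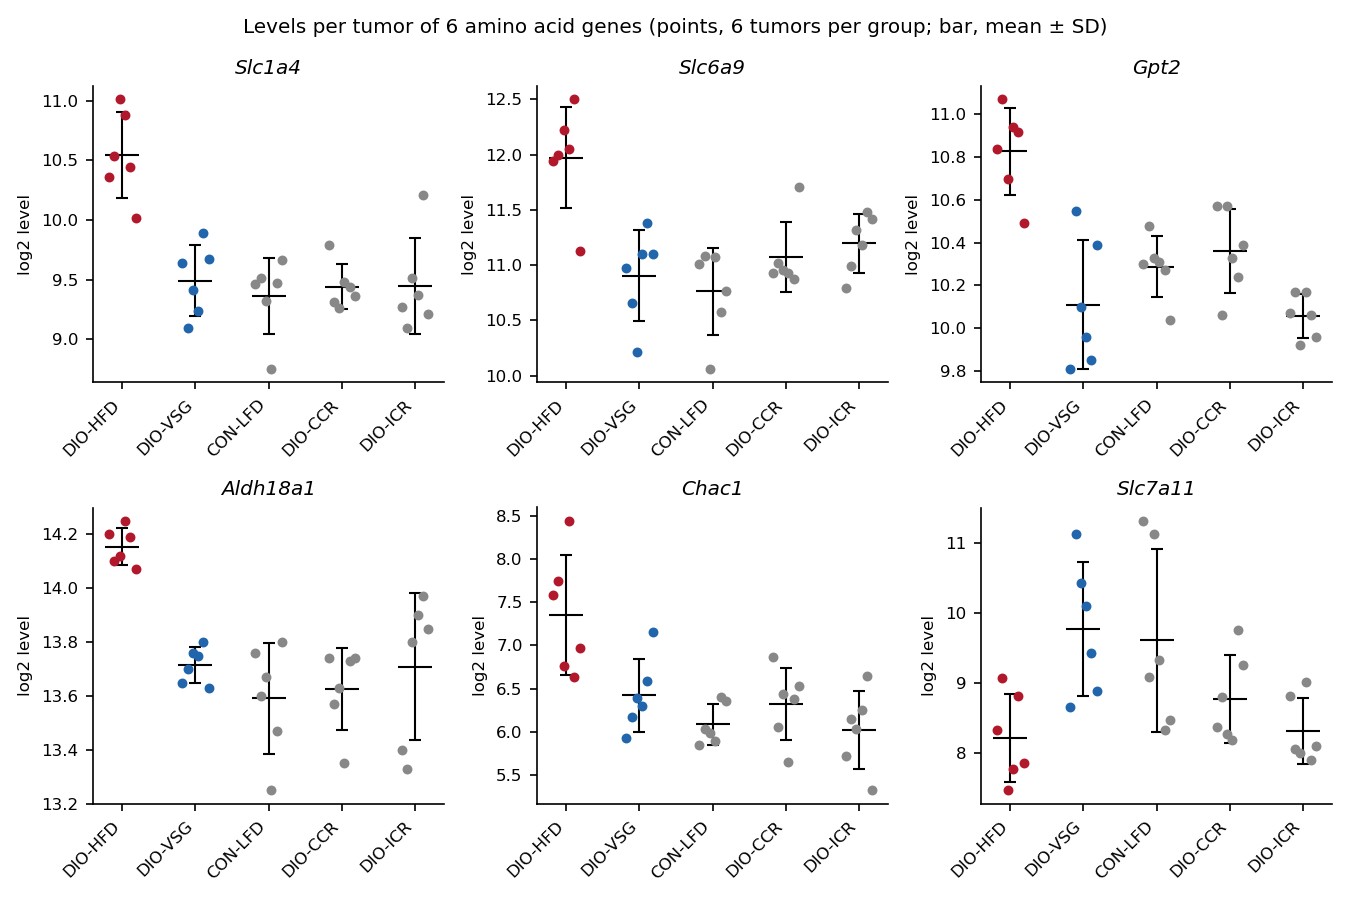
Log2 levels of 6 amino acid genes in each tumor of the 5 groups (points, 6 per group; horizontal bar and whiskers, mean and SD). Slc1a4 lies between 10.02 and 11.01 in DIO-HFD and no higher than 10.21 in any tumor of the other groups. Slc7a11 is higher in DIO-VSG (8.65 to 11.12) than in DIO-HFD (7.46 to 9.06) with some overlap, while DIO-ICR (7.89 to 9.01) lies within the DIO-HFD range.

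Atf4 binds with a CEBP partner to an element whose core can be written TGATGCAA. These letters were searched on both strands of RefSeq promoter windows (build GRCm38.p6, 250 bases before to 50 after each start), and 279 of 27025 genes with a window (1.03%) held them. Of the 31 listed genes with a window 7 held them (22.6%), a list drawn up from known targets of this factor, and of 25 genes that passed 2 did, Slc1a4 and Nlrp3. A match describes the sequence only and does not show that a factor binds. The sites of the genes described here are shown 5′ to 3′ on the strand of the gene, with the letters or their reverse complement in capitals.
Slc1a4: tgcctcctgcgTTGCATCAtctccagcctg
Chac1: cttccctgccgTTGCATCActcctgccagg
Nupr1: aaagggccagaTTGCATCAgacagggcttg
Slc7a11: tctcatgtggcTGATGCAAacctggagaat
Nlrp3: gtctttgacagTGATGCAAgcttgttcacg
They lie on GRCm38.p6 at chr11:20332699-20332728 on the minus strand (Slc1a4), chr2:119351038-119351067 plus (Chac1), chr7:126625562-126625591 minus (Nupr1), chr3:50443661-50443690 minus (Slc7a11) and chr11:59541480-59541509 plus (Nlrp3). The letters begin at position -4 relative to the annotated start in Slc1a4 and at -78 in Nlrp3, and Slc7a11 has a further match at -47. Of the genes with the letters, all but Slc1a4 and Nlrp3 were chosen after their values were seen. Chac1, which degrades glutathione, was between 6.63 and 8.44 in DIO-HFD and between 5.93 and 7.15 in DIO-VSG (difference -0.93, adjusted p = 0.162). Nupr1, a stress-induced nuclear protein, was between 11.99 and 12.36 and between 11.53 and 11.92 and did not overlap (difference -0.40, adjusted p = 0.126). The letters thus stood in the windows of genes that were lower (Slc1a4, where they run across the start, Chac1, Nupr1) and of genes that were higher (Slc7a11, Nlrp3). The other listed genes with them, Atf3, Got1 and Vldlr, had differences of -0.08, -0.08 and 0.15.

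Sterol, cell cycle and clock genes were lower in sign with no calls. All 19 cholesterol genes were lower in sign, 6 at an unadjusted p under 0.05, and the median was -0.34, -0.20 without DIO-VSG 1, -0.22 without the lymph node tumors and -0.49 without the muscle tumors. Mvk, the mevalonate kinase, was between 8.28 and 8.98 in DIO-HFD and between 7.73 and 8.59 in DIO-VSG (difference -0.55), and Hmgcs1, an enzyme of an earlier step, between 14.82 and 15.44 and between 14.21 and 15.03 (difference -0.44). Of 30 cell cycle genes 28 were lower in sign and 10 were so at an unadjusted p under 0.05, where 6.47% of all genes were, with a median of -0.20. The mean of this list was between -0.38 and 0.04 in DIO-VSG and between 0.05 and 0.18 in DIO-HFD, so that all 6 DIO-VSG tumors were the lower ones. Ccna2, cyclin A2, was between 14.45 and 14.64 and between 13.98 and 14.33 without overlap (difference -0.32, adjusted p = 0.2), as was Rrm1, a subunit of the enzyme that makes deoxynucleotides, between 14.10 and 14.19 and between 13.79 and 14.03 (adjusted p = 0.207). Mki67, a marker of dividing cells, overlapped (difference -0.14, adjusted p = 0.74). Gins3, part of the replication helicase, was the 1 replication gene that passed, outside the list, with a fall of 0.43 from a range of 10.65 to 11.14 to one of 10.37 to 10.59. Of 18 clock genes 16 were lower in sign with a median of -0.22, among them the repressor Per2, between 5.50 and 6.93 in DIO-HFD and between 5.01 and 5.83 in DIO-VSG (difference -0.71, adjusted p = 0.207).

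Genes outside the lists made up 14 of the 30. Arhgef37 was between 4.35 and 4.97 in DIO-HFD and between 5.43 and 6.40 in DIO-VSG. All of these values were low, under 6.44, the lowest median level of any of the 12 arrays. Arhgef37 had the smallest adjusted p of all genes (0.0144) and, with Slc1a4 and Gpt2, was 1 of the 3 genes that passed without each of the 12 tumors. None of these 3 passed in the fit of the 12 tumors alone. Sorl1, a sorting receptor, was between 6.89 and 8.16 and, in 5 DIO-VSG tumors, between 8.49 and 9.25, with DIO-VSG 1 at 11.81. Without DIO-VSG 1 and DIO-HFD 5 its difference of 1.97 was 1.64 and it was the only gene that passed. Phactr1, an actin regulator, was between 3.64 and 5.08 and between 5.49 and 6.88 (fold 3.26), and Sema4d, a semaphorin of T cells and other leukocytes, between 9.17 and 10.29 and between 10.59 and 11.98 (fold 2.53), both without overlap. The DIO-HFD values of Phactr1 were also under 6.44. Pmp22, a membrane protein of myelin and fibroblasts, was between 11.62 and 12.66 in DIO-HFD and between 9.81 and 10.33 in 5 DIO-VSG tumors, with DIO-VSG 1 at 11.69 as the 1 overlap. Its fall of 1.70 was one of 1.85 without the lymph node tumors. Srgap3, Smurf1, a ubiquitin ligase of TGF-beta signaling, and Sapcd2, a protein of the mitotic spindle, fell by 0.64, 0.57 and 1.01. Olfr298, an olfactory receptor gene, passed as lower, between 5.26 and 6.20 in DIO-HFD and between 4.42 and 5.05 in DIO-VSG. Its values too lay under 6.44 in all 12 tumors. Spon1, an extracellular matrix protein and the 1 gene of 20 in the fibroblast list that passed, rose by 1.27, and Col1a1, a fibrillar collagen, ran from 9.80 to 13.40 in DIO-HFD and from 10.09 to 13.11 in DIO-VSG (adjusted p = 0.761).

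Further genes outside the lists had large differences that did not pass. The major urinary protein genes Mup19, Mup22 and Mup2, near-identical copies whose separate values are uncertain, were higher by 3.01, 2.82 and 2.60 (adjusted p from 0.185 to 0.224). Mup19 was between 4.60 and 7.40 in DIO-HFD and between 8.34 and 10.70 in 5 DIO-VSG tumors, with DIO-VSG 4, the tumor highest in muscle markers, at 5.87. Apol7e was higher by 1.98 and was highest in DIO-VSG 1, at 8.35 against 6.67 or less in the rest. Qpct, a glutaminyl cyclase, and Sel1l3 were lower by 1.39 and 1.21 (adjusted p = 0.109 and 0.129). Hcar2, a receptor for niacin and ketone bodies in the list of gut hormone and bile acid signaling, was between 6.47 and 9.15 and between 7.31 and 10.39 (difference 1.54, adjusted p = 0.222).

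The remaining lists held no gene that passed. Their medians were 0.25 for endothelium (15 genes), 0.21 for gut hormone and bile acid signaling (21), -0.01 for fatty acid oxidation (19), -0.06 for insulin and IGF signaling (19), -0.06 for genes induced by glucocorticoids (15), -0.09 for glycolysis and hypoxia (21) and -0.37 for red blood cells (3 measured of 10). Without DIO-VSG 1 gut hormone signaling was at 0.10, fatty acid oxidation at -0.05, glucocorticoid genes at -0.09 and glycolysis at -0.02.

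Leaving out tumors changed the count of genes far more than the differences themselves. Without DIO-VSG 1 and DIO-HFD 5, 1 gene passed (0.00513%) and 1314 were at an unadjusted p under 0.05 (6.74%). With only DIO-VSG 1 left out 22 genes passed, and with only DIO-HFD 5 left out 4 did. Leaving out DIO-HFD 6, a tumor under both limits, gave 6. Without the tumors high in muscle markers (DIO-VSG 3, DIO-VSG 4 and CON-LFD 5) 5 passed (0.0256%) and 10.9% of genes were at an unadjusted p under 0.05. The 5 were Arhgef37, Retnlg, Sorl1, Sapcd2 and, as a new gene, Hrh2, a histamine receptor that was between 4.15 and 5.40 in DIO-HFD and between 5.01 and 7.29 in DIO-VSG (difference 1.31). Without all of them only Sorl1 passed (0.00513%). All 30 genes kept their direction and an unadjusted p under 0.05 in each of these fits and with the scores as covariates. They had been picked for a small p on most of the same arrays, so this says little about their stability. Their differences without the lymph node tumors were from 0.752 (Ccr2) to 1.09 times (Pmp22) those with all tumors, with a median of 0.908, and their SEs were a median of 1.06 times as large. Without the muscle tumors the median ratio was 1.00, from 0.852 (Nlrp3) to 1.18 (Sorl1), with SEs 1.14 times as large. With the lymph node and muscle scores as covariates 39 genes passed (0.2%), 22 of the 30 among them, and the differences were from 0.804 (Napsa) to 1.30 times (Il1b) as large. DIO-VSG 1 was the tumor farthest from DIO-HFD in 13 of the 30 genes and the nearest to it in 7.

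**Figure D4:**
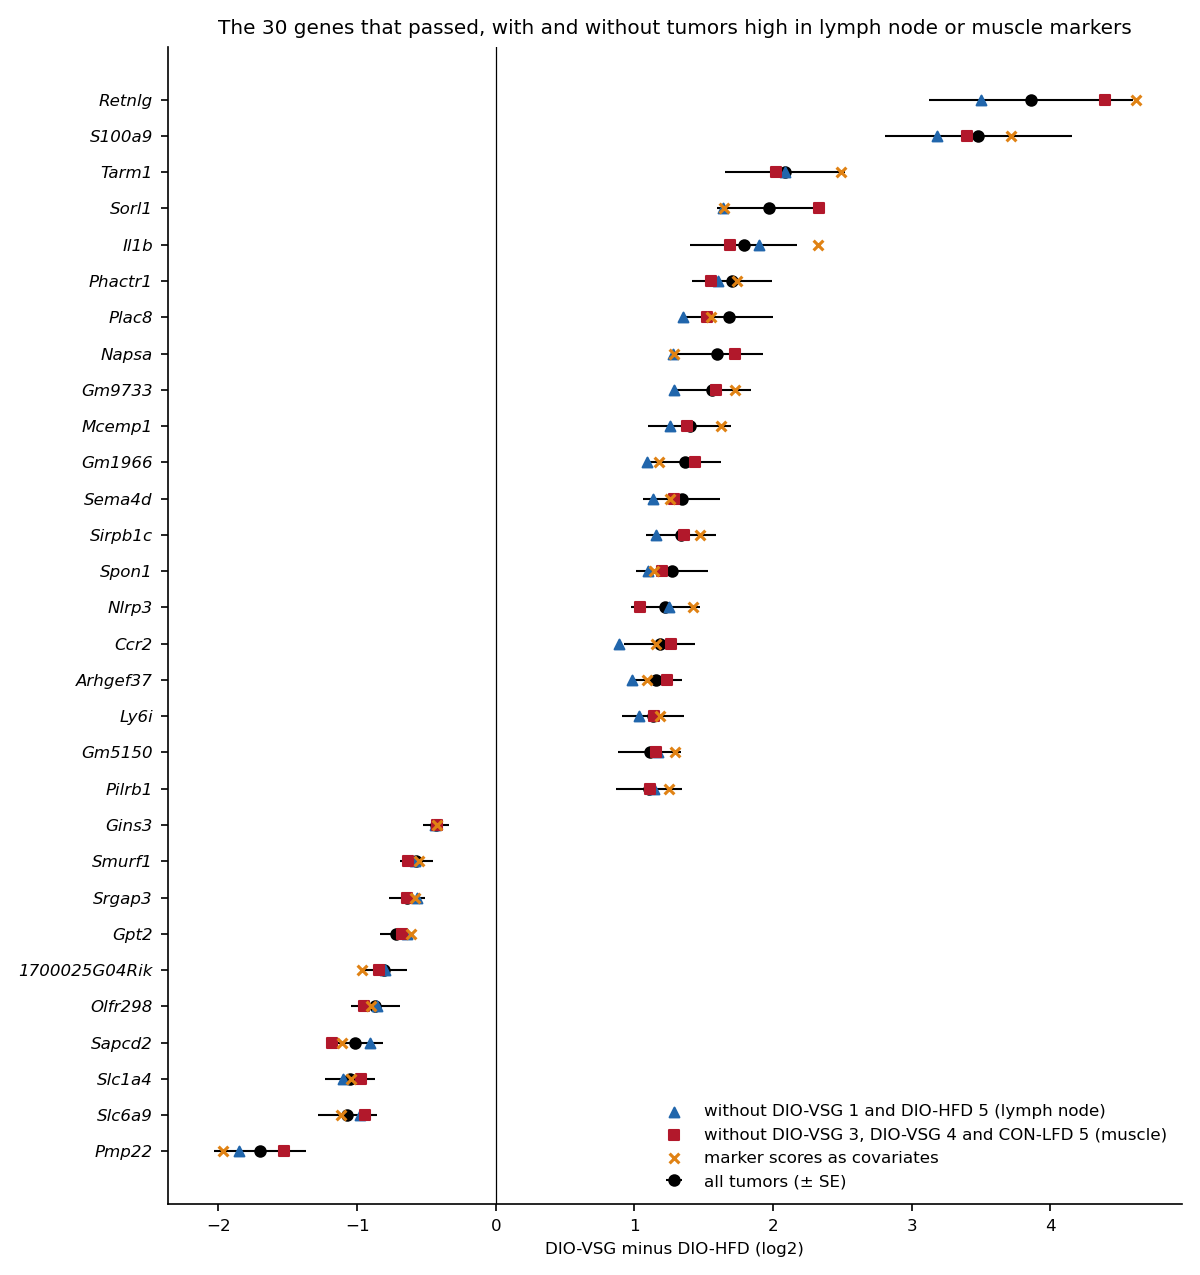
DIO-VSG minus DIO-HFD difference on the log2 scale for the 30 genes that passed, with all tumors (black, with SE) and under 3 other fits (coloured marks). All marks of a gene stay on 1 side of 0, and Ccr2 moves to 0.752 times its difference without the lymph node tumors.

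Single tumors outside these also mattered. With each of the 12 tumors left out in turn, from 4 genes (without DIO-HFD 5) to 47 (without DIO-HFD 2) passed, and 27 of the 30 failed in at least 1 of these fits, 26 of them in 4 or more. The differences themselves moved less, for S100a9 between 3.25 and 3.92, for Il1b between 1.64 and 2.05 and for Slc6a9 between -1.24 and -0.93. DIO-HFD 2 was the highest of its group in 12 of the 20 higher genes, among them S100a9, Retnlg, Il1b, Nlrp3 and Tarm1.

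**Figure D5:**
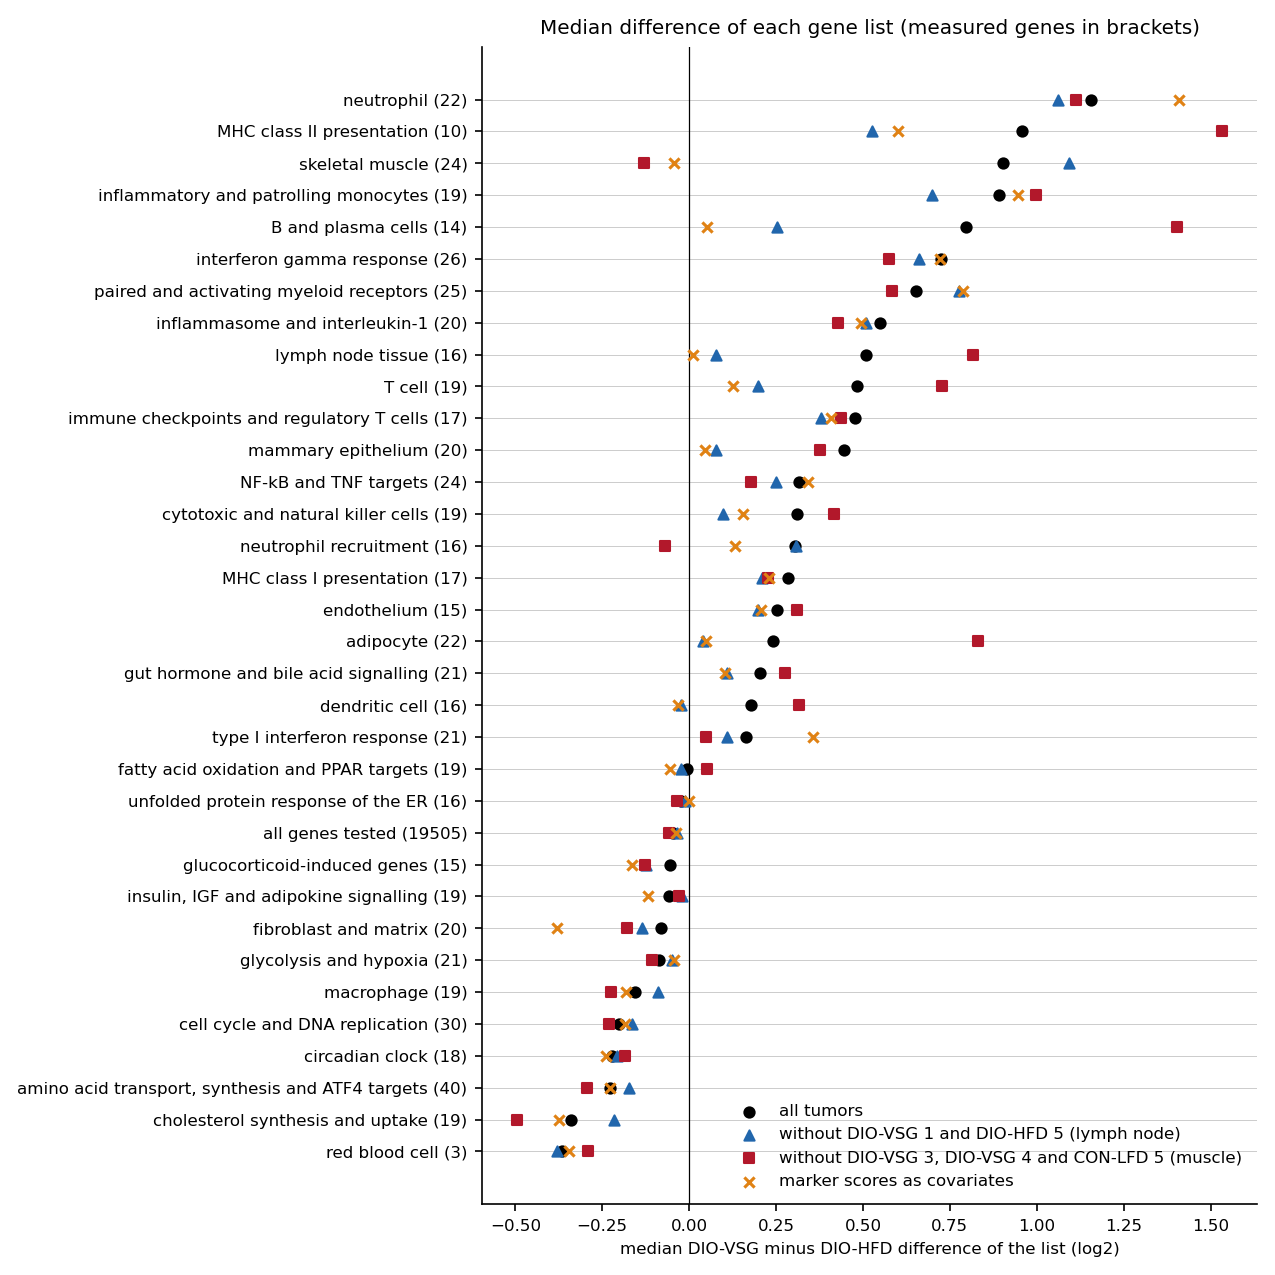
Median DIO-VSG minus DIO-HFD difference of each gene list on the log2 scale with all tumors (black) and under 3 other fits (coloured marks). Neutrophil genes lie at 1.16 with all tumors and above 1 in the 3 other fits shown, while muscle genes go from 0.90 to -0.13 and B and plasma cell genes from 0.795 to 0.25. The fall of the muscle genes is built in, because the tumors left out were picked on these genes.

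The other groups place these levels. They are given as levels because each comparison with DIO-HFD shares its 6 arrays. S100a9 averaged 6.75 in DIO-HFD and 10.23 in DIO-VSG, and 10.38 (SD 1.95) in CON-LFD, 7.45 in DIO-CCR and 6.28 in DIO-ICR. Retnlg averaged 4.40 and 8.26, and 7.78, 4.75 and 4.36 in the same order. Between DIO-VSG and DIO-ICR, S100a9 and Retnlg differed by 3.95 and 3.90 (adjusted p = 0.0298 and 0.0445), 2 of 6 genes that passed in that comparison (0.0308%), and between DIO-VSG and DIO-CCR by 2.78 and 3.51 (adjusted p = 0.142 and 0.0737), where 0.0513% of genes passed. Sirpb1c and Ccr2 were close in the 3 weight-loss groups. Sirpb1c averaged 13.87 in DIO-VSG, 13.67 in DIO-CCR and 13.89 in DIO-ICR, and 13.10 in CON-LFD. Its difference between DIO-VSG and DIO-ICR was -0.02 with an SE of 0.25. Ccr2 averaged 12.30, 12.18, 12.29 and 11.61 in that order. Slc1a4 averaged 9.49 in DIO-VSG, 9.36 in CON-LFD, 9.44 in DIO-CCR and 9.44 in DIO-ICR, against 10.54 in DIO-HFD, and Gpt2 10.11, 10.29, 10.36, 10.06 and 10.83 in that order. Sema4d was the 1 gene of the 30 that passed between DIO-VSG and CON-LFD (difference 1.72, adjusted p = 0.0124), where 0.0256% of all genes passed. Of the 30, 14 were at an unadjusted p under 0.05 there, 19 against DIO-CCR and 15 against DIO-ICR. The 30 were chosen on the same DIO-VSG arrays, so an excess in these counts is partly built in.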

How the data were processed

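The deposited log2 values of Mouse Clariom S arrays were used, which the authors made by signal space transformation and robust multi-array averaging in the Transcriptome Analysis Console. RNA was extracted from frozen tumors. The table held 22206 probe sets and 0 missing values. In the annotation used here 19572 had 1 gene symbol and 2634 had none, and for 55 symbols with several probe sets the brightest was kept, which left 19505 genes. No read depth or detection value came with the arrays, so their number limits the precision. The sources used here do not name the array design's genome build.

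With limma 3.58.1 in R 4.3.3 (25 residual degrees of freedom), 1 mean was fitted for each of the groups on all 30 arrays, with Benjamini-Hochberg adjustment over all genes. The median SE of a difference was 0.179. In simulated data with 200 changed genes, 27.7%, 78.6% and 98.5% of changes of 0.5, 1 and 2 on the log2 scale were found, and 5.15% of calls were false. Whether these rates hold for the measured arrays, where single tumors stood far from their group, was not tested.

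The comparison, the 33 gene lists and the naming rule (all genes that passed, the 3 with the smallest p of each list, a panel of 14 genes, the 5 highest and 5 lowest named genes outside the lists, genes that passed only without doubtful tumors, and 5 lymph node and muscle markers) were chosen with earlier results of these data known. Genes outside this rule are marked in the text as chosen after their values were seen. The alternatives were median centring, quantile normalization, no dimmest 30% of genes, all probe sets, the 12 arrays only, trend and robust moderation, array weights, no doubtful tumors, marker scores as covariates, and each tumor left out. Mice of a group are numbered in accession order, and each tumor came from its own mouse.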

Additional observations from a re-analysis of the deposited data

Results flagged for a closer look

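In 16 of 126 sets of 6 tumors (the genes that passed and the list means, in either group), the highest or lowest tumor lay farther from its nearest neighbour than Dixon's critical value allows, where chance gives about 1 set in 20. DIO-VSG 1 accounted for 11. In that tumor Il1b was low at 10.35 (next 11.58), Pmp22 high at 11.69 (next 10.33) and Sorl1 high at 11.81 (next 9.25). Its list means were also high, with B and plasma cells at 6.03 (next 1.61), lymph node tissue at 3.607 (next 0.795), MHC class II at 3.378, T cells at 2.889, mammary epithelium at 1.935, dendritic cells at 1.708, fatty acid oxidation at 0.705 and insulin and IGF signaling at 0.536. DIO-VSG 4 stood apart in skeletal muscle at 4.835 (next 1.563). In DIO-HFD, DIO-HFD 5 stood apart in B and plasma cells at 3.004 (next 0.087) and lymph node tissue at 1.537 (next -0.074), DIO-HFD 2 in neutrophil recruitment at 1.263 (next -0.127), and DIO-HFD 1 was low in mammary epithelium at -0.387 (next -0.085). The causes were not tested.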

How the results depend on the processing

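Against 30 genes with all tumors, 46 passed without the 30% dimmest genes, which adjusts over fewer genes, 7 with only the 12 arrays in the fit, 5 without the muscle tumors, and 1 without the lymph node tumors, without both, and, in a fit added after the data were seen, without the lymph node tumors and DIO-VSG 5. Leaving out single tumors gave 47 genes without DIO-HFD 2 and 4 without DIO-HFD 5 at the extremes. It was 6 without DIO-HFD 6 or DIO-VSG 3, 8 without DIO-HFD 4 or DIO-VSG 5, 9 without DIO-HFD 3 and 10 without DIO-VSG 2. The other settings gave from 22 (median centring) to 39 (marker scores as covariates), and the split of higher and lower genes was 14 and 8 with median centring and 22 and 7 with quantile normalization. The 30 genes kept their direction in every setting, which says little because they were picked on most of the same arrays.

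Directions turned only in genes that did not pass. Without the lymph node tumors this was Krt18 (-0.23), Epcam (-0.29), Cr2 (-0.20) and Adipoq (-0.60), and without DIO-VSG 5 as well, Krt18 (-0.42), Epcam (-0.60), Cr2 (-0.40), Adipoq (-1.55), Retn (-0.0365) and Mzb1 (-0.019). With array weights Epcam (-0.0368), Cr2 (-0.24) and Adipoq (-0.63) turned, with covariates Cr2 (-0.55), Adipoq (-0.14) and Ppargc1a (-0.0074), without both kinds of tumor Pygm (-0.0467) and Cr2 (-0.13), and with quantile normalization Adgre1 (0.0359). Cr2 and Pygm belong to the lymph node and muscle lists that picked these tumors and made the scores. Their turns without these tumors or with the scores were therefore in part built in. With 1 tumor left out the lowest and highest differences were -0.19 and 0.82 for Krt18, -0.29 and 0.82 for Epcam, -0.64 and 0.75 for Cr2, -0.24 and 0.0833 for Epb42, -1.01 and 0.79 for Adipoq and -0.056 and 0.08 for Adgre1. The cause was not tested. No paired analysis was possible because the labels give the groups no shared replicate numbers.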
